A study of Arabidopsis thaliana with 8 samples.

Results

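Expression in untreated roots of gpa1-2, an Arabidopsis thaliana mutant described as lacking the heterotrimeric G protein α subunit, was set against that of untreated roots of its wild type, ecotype Wassilewskija (WS). The question was which genes differed between gpa1-2 and WS before any nucleotide was given. A gene entered the comparison when it had an FPKM (fragments mapped to the gene, scaled to the length of its model and to all mapped fragments) of 1 or more in either untreated column and a scaled count of 12 or more summed over both. In all, 18770 of the 33544 genes listed for both genotypes met this rule. The difference is gpa1-2 minus WS on the log2(FPKM + 1) scale, and a gene is said to differ when it is 1 or more in size, which is close to a 2-fold change for well expressed genes.

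The series has 8 samples in 4 conditions, gpa1-2 untreated, WS untreated, gpa1-2 with ATP and WS with ATP, and the comparison uses the 4 labelled samples of the untreated conditions. The labels give the tissue as root and 4 days of growth on half-strength Murashige and Skoog medium, whereas the study's expression methods name root tips and a longer growth time. The treated seedlings then stood for 60 min on medium with ATP. The study describes gpa1-2 as a null mutant and uses a single allele here, with no complemented line. The labels give 2 biological replicates per condition but the tables hold 1 pooled value per condition, so nothing below has a replicate error, and no p-value could be computed. The columns are named by number only, but each table carries its genotype in its name. A column is taken as a given genotype and treatment from that name and from the numbers of marked genes. The genes each table marks as up or down are as many as the study states for that genotype. This assignment was not tested by other means, and the values of GPA1 and MAPR2 given below bear on it.

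Heterotrimeric G proteins couple receptors at the plasma membrane to signalling inside the cell. Arabidopsis has a single canonical α subunit, GPA1, beside the β subunit AGB1, several γ subunits and extra-large α proteins, and RGS1 speeds up the hydrolysis of GTP by GPA1. Mutants in these genes are known for altered root branching, hormone responses and defence, and the study used them to ask how roots sense ATP outside the cell.

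The deposited values correspond to 11769875 reads for untreated gpa1-2 and 11780806 reads for untreated WS, and to 13483769 reads for ATP-treated gpa1-2 and 12212956 reads for ATP-treated WS. Root markers were present in both untreated columns: the 8 endodermis genes, such as CASP1 of the Casparian strip, summed to 1458 FPKM in gpa1-2 and 1366 FPKM in WS, and the 13 root hair genes summed to 1305 and 1280 FPKM in gpa1-2 and WS. The 23 markers of green tissue, 15 of them kept, summed to 89.2 FPKM in gpa1-2 and 90.9 FPKM in WS. Below 0 lay 6 of 6 kept non-hair epidermis markers (median -0.16) and 8 of 10 meristem and stem cell niche markers (-0.14). The same held for 4 of 6 root cap (-0.25), 6 of 8 xylem (-0.11) and 3 of 7 phloem markers (0.04), against 53.9% of all kept genes. None of the genes on these marker lists differed by 1 or more, and 0 seed markers were kept. In tissue of many cell types, fewer cells of a type and less RNA per cell cannot be told apart.

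GPA1 itself (AT2G26300) had 28.6 FPKM in untreated gpa1-2 and 51.9 FPKM in untreated WS, from 596 and 1049 reads. Its scaled read ratio was 0.551, with an exact 95% interval of 0.497 to 0.610 that covers counting error only, and its difference of -0.84 stayed short of 1. In ATP-treated roots GPA1 had 31.1 FPKM in gpa1-2 and 46.5 FPKM in WS. GPA1 reads were thus fewer in gpa1-2 in both pairs of columns but far from absent, although gpa1-2 is described as a null mutant. Where in the gene these reads lie is not given in the files, so a shortened or interrupted transcript cannot be told apart from a whole one.

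The other 16 genes of the G protein list lay between -0.39 and 0.41, and none differed by 1 or more. AGB1, the β subunit, had 63.6 FPKM in gpa1-2 and 59.5 FPKM in WS. The γ subunits AGG1 (22.8 FPKM in gpa1-2, 25.8 FPKM in WS) and AGG2 (11.3 FPKM in gpa1-2, 9.43 FPKM in WS) had differences of -0.17 and 0.23. RGS1 had 18.6 FPKM in gpa1-2 and 18.3 FPKM in WS. Counting intervals excluded a ratio of 1 for 3 genes above it and for GPA1 alone below it.

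The highest of these differences belonged to PRN1, which encodes a pirin that binds GPA1 and had 132 FPKM in gpa1-2 and 99.1 FPKM in WS. NDL2, of a family that binds AGB1, had 44.4 FPKM in gpa1-2 and 34.8 FPKM in WS. The extra-large α protein genes XLG1, XLG2 and XLG3 had differences of 0.03, -0.11 and 0.20. Of the 139 kept genes within 100 listed genes on each side of GPA1 in the RefSeq annotation (assembly TAIR10.1), 0 differed by 1 or more. As only 0.607% of all kept genes did, nothing is read from this count. The largest difference there was 0.846 in size, at PLA2A.

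Across all kept genes, 114 (0.607%) differed between untreated gpa1-2 and WS, with 68 (0.362%) higher and 46 (0.245%) lower in gpa1-2. On the log2 ratio of depth-scaled reads the same threshold gave 252 higher and 109 lower genes. The median difference was -0.02, the middle 90% of genes lay between -0.43 and 0.44, and 92.9% of genes were within 0.5 of 0. The 68 higher genes had a median of 12.7 FPKM in gpa1-2 and 4.42 FPKM in WS, and the 46 lower genes had a median of 4.08 FPKM in gpa1-2 and 12.6 FPKM in WS.

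The share of differing genes was higher at low depth. Of genes with 20 to 100 reads over both columns, 1.6% differed (28 higher, 22 lower of 3122), against 0.488% of those with 100 to 1000 reads (32 higher, 19 lower of 10445) and 0.25% of those with 1000 or more (8 higher, 5 lower of 5203). The counting interval of the read ratio excluded 1 for 110 of the 114 genes, and it lay wholly past 2-fold for 47. These intervals compare libraries and not genotypes, since the spread between plants is not in them. Spans that overlap another gene of the RefSeq annotation were held by 19 of the 114 (16.7%), against 31.7% of kept genes. As no use of strand is stated, reads of such genes cannot be told apart. That annotation lacks 83 of the kept genes, so overlaps with these were not seen. Just inside the threshold, between 1 and 1.02 in size, stood 10 genes such as MYB49 (1.01) and WRKY38 (-1.003), and just outside it, between 0.98 and 1, stood 11 genes such as PXMT1 (0.998) and RRTF1 (-0.983).

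**Figure D1:**
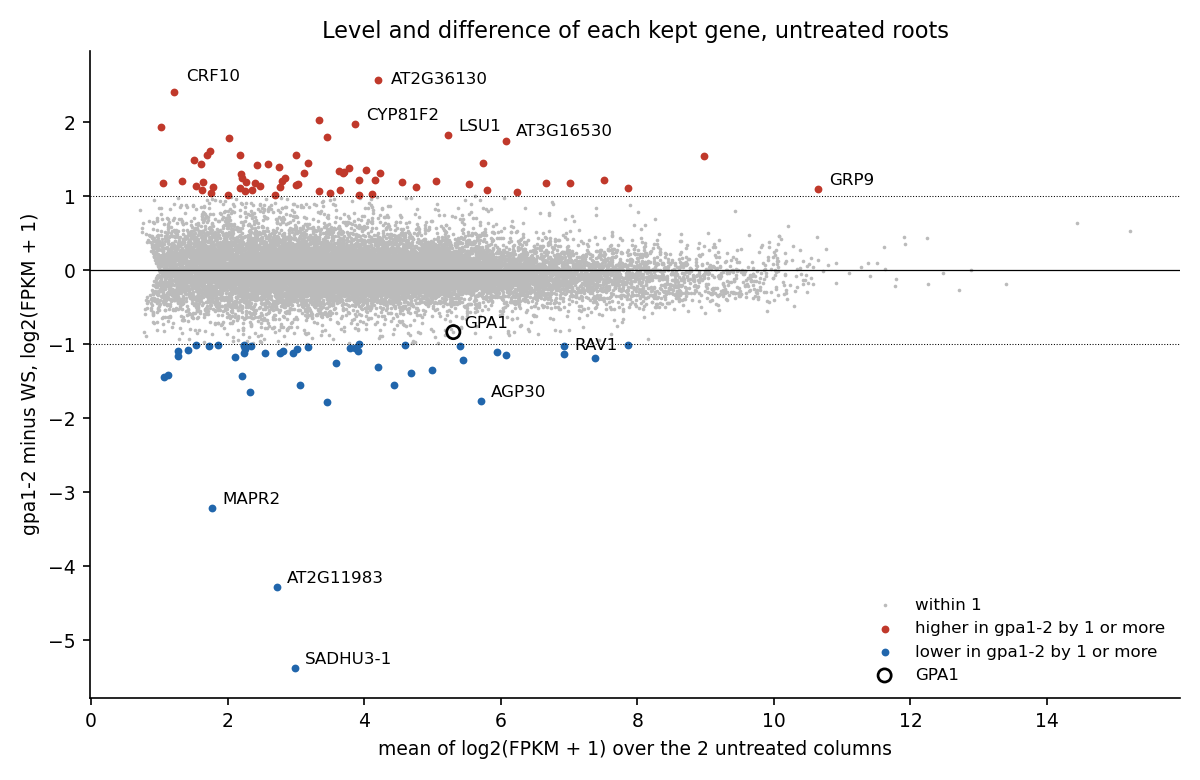
Each point is 1 of the 18770 kept genes, with the mean of log2(FPKM + 1) over untreated gpa1-2 and WS on the x axis and gpa1-2 minus WS on the y axis. Red points are the 68 genes higher in gpa1-2, blue points the 46 lower genes, the ring marks GPA1 at -0.84, and SADHU3-1, AT2G11983 and MAPR2 lie far below all other genes.

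The largest positive difference, 2.57, belonged to AT2G36130, which encodes a peptidyl-prolyl cis-trans isomerase, an enzyme class that helps proteins fold. It had 43.8 FPKM in untreated gpa1-2 and 6.56 FPKM in untreated WS, from 310 and 45 reads, a ratio of 6.68 (4.88 to 9.35). In ATP-treated roots it had 48.8 FPKM in gpa1-2 and 6.25 FPKM in WS. The gene thus kept 1 level in each genotype, and the levels were far apart in both pairs.

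CRF10 (AT1G68550), a transcription factor of the AP2/ERF family, had 81 reads in untreated gpa1-2 and 0 reads in untreated WS. Against a floor of 3 reads per library it was at least 26.2-fold higher in gpa1-2, and the exact interval of the ratio, which also takes in the counting error of the gpa1-2 reads, began at 20.8. In ATP-treated roots it had 111 reads in gpa1-2 and 20 reads in WS, and its differences were 2.41 in the untreated and 1.63 in the ATP-treated pair. The 0 reads in untreated WS are a rounded value, as that column held 0.00126 FPKM.

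AT5G45430, a protein kinase gene, had 77 reads in untreated gpa1-2 and 1 read in untreated WS, a ratio of 74.7 (13 to 2987). Its ATP-treated columns held 127 reads in gpa1-2 and 226 reads in WS, so the untreated WS column alone was near 0. How shared reads were divided among genes is not stated, and the counting intervals of near-0 columns do not cover it.

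CYP81F2, a cytochrome P450 that hydroxylates indole glucosinolates in defence, had 28.0 FPKM in gpa1-2 and 6.37 FPKM in WS (difference 1.98). AT1G26380, of the berberine bridge enzyme family, had 4.86 FPKM in gpa1-2 and 0.911 FPKM in WS (1.62). A lectin gene, AT3G16530, was the most deeply read of the 12 highest, with 123 FPKM in gpa1-2 and 35.7 FPKM in WS from 1245 and 352 reads, although its annotated span overlaps another gene.

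None of these 3 genes kept its difference in ATP-treated roots. There CYP81F2 had 2.78 FPKM in gpa1-2 and 3.31 FPKM in WS, and AT3G16530 had 41.4 FPKM in gpa1-2 and 49.3 FPKM in WS. AT1G26380 had 0.359 FPKM in gpa1-2 and 1.5 FPKM in WS.

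LSU1, a gene named for its induction at low sulfur, had 69.6 FPKM in gpa1-2 and 18.9 FPKM in WS (1.82). SCRL28, for a defensin-like peptide, had 20 and 4 reads in gpa1-2 and WS, a ratio of 4.85 with a wide interval of 1.62 to 19.5. The lectin receptor kinase gene AT5G65600 had 6.54 FPKM in gpa1-2 and 1.19 FPKM in WS (1.78), and it too overlaps another gene. The other 3 of the 12 highest were ABCA8, an ABC transporter gene (1.55), and AT2G23270 (1.8) and AT5G20790 (1.55), which are uncharacterised.

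The largest negative difference, -5.38, was that of SADHU3-1 (AT3G44042), a member of the Sadhu family of retroposons. It had 0.225 FPKM in untreated gpa1-2 and 50.1 FPKM in untreated WS, from 2 and 432 reads, and a ratio of 0.00449 (0.000542 to 0.0163). AT2G11983 had 1 read in gpa1-2 and 56 reads in WS, a ratio of 0.0173 (0.000431 to 0.101) and a difference of -4.29. Both were near or at 0 in gpa1-2 in the ATP-treated pair as well, where SADHU3-1 had 1 read in gpa1-2 and 475 in WS, and AT2G11983 had 0 reads in gpa1-2 and 64 in WS, with an exact interval of the ratio that ended at 0.0547.

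MAPR2 (AT2G24940), of the membrane-associated progesterone binding protein family, had 0.119 FPKM in untreated gpa1-2 and 9.43 FPKM in untreated WS, from 4 and 275 reads (difference -3.22). In ATP-treated roots the order was turned round, with 9.40 FPKM in gpa1-2 and 0.136 FPKM in WS from 304 and 4 reads. MAPR2 was thus near 0 in 1 column of each genotype. Its level followed neither genotype nor treatment alone as the columns are assigned here.

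AGP30, a root arabinogalactan protein of the cell wall, was the lowest of the genes with over 1000 reads in the pair, with 27.3 FPKM in gpa1-2 and 95.2 FPKM in WS from 265 and 897 reads. Its difference was -1.77 in untreated and -0.97 in ATP-treated roots, where it had 49.3 FPKM in gpa1-2 and 97.7 FPKM in WS. MAPKKK21, a kinase gene of the MAP kinase cascade, had 14.9 FPKM in gpa1-2 and 40.6 FPKM in WS when untreated (-1.38), but 16.8 FPKM in gpa1-2 and 9.0 FPKM in WS with ATP. AT2G17880, for a DNAJ-domain protein of the co-chaperone type, had 3.89 FPKM in gpa1-2 and 13.3 FPKM in WS (-1.55).

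The rest of the 12 lowest were AT1G53610 (-1.78), AT3G22970 (-1.64), AT1G07175 (-1.55) and AT1G48598 (-1.44), the aspartyl protease gene AT5G48430 (-1.43) and AT3G25570, for an S-adenosylmethionine decarboxylase of polyamine synthesis (-1.41). AT1G53610 rests on 5 reads in gpa1-2 and 19 reads in WS. AT1G48598 rests on 5 reads in gpa1-2 and 48 reads in WS, and the RefSeq annotation lacks it, so its overlap with other genes is unknown.

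**Figure D2:**
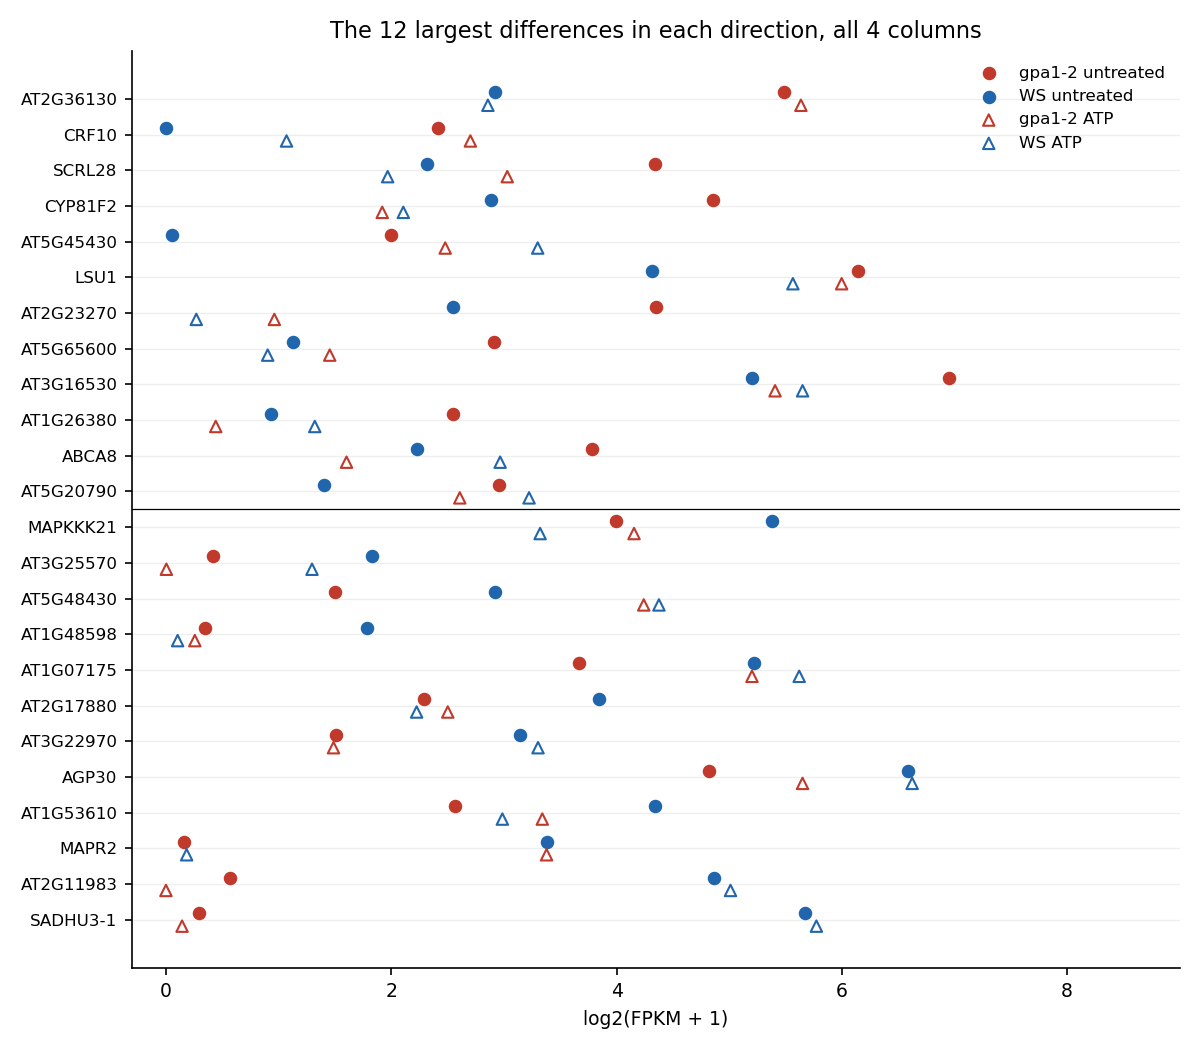
The x axis gives log2(FPKM + 1) in each of the 4 columns for the 12 genes with the largest positive differences (above the line) and the 12 with the largest negative ones (below it), gpa1-2 in red and WS in blue, circles for untreated and triangles for ATP-treated roots. For AT2G36130, SADHU3-1, AT2G11983 and AT3G22970 the triangles lie close to the circles of their own genotype, whereas for MAPR2 the colours are exchanged.

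The ATP-treated pair comes from other columns, so it could be read beside the untreated pair without shared values. There, 183 of 18673 kept genes (0.98%) differed between gpa1-2 and WS, 85 (0.455%) higher and 98 (0.525%) lower in gpa1-2. Of the 68 higher genes, 58 were kept in that pair, 25 of them (43.1%) were again above 0, against 52.4% of all genes kept in both pairs, and their median was -0.16. Of the 46 lower genes, 40 were kept, 22 (55.0%) were again below 0, against 47.6% of all genes, and their median was -0.14. Whether the untreated difference was the same in both treatments was not tested, as there is 1 value per condition.

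In all, 8 genes differed the same way in both pairs, 2 higher and 6 lower in gpa1-2. They are 8.16% of the 98 differing genes kept in both pairs and 5.33% of the 150 genes that differed in ATP-treated roots. The share of all genes kept in both pairs was 0.441% for higher and 0.376% for lower in ATP-treated gpa1-2. AT2G36130, CRF10, SADHU3-1 and AT2G11983 were 4 of them.

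The other 4 were all lower in gpa1-2. The uncharacterised gene AT3G22970 had 36 reads in gpa1-2 and 150 reads in WS when untreated, and 38 reads in gpa1-2 and 174 reads in WS with ATP. AT3G25570 had 6 reads in gpa1-2 and 43 reads in WS when untreated. With ATP it had 0 reads in gpa1-2, a rounded value at 0.00264 FPKM, and 25 reads in WS. The exact interval of that ratio ended at 0.147. The column of each genotype was nearly the same with and without ATP for AT3G22970, with 1.84 and 1.8 FPKM in gpa1-2 and 7.86 and 8.87 FPKM in WS.

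AT5G52050, for an efflux carrier of the MATE family, had 46 reads in gpa1-2 and 109 reads in WS when untreated, and 98 reads in gpa1-2 and 243 reads in WS with ATP. AT5G33432, an En/Spm-like transposon gene, had 14 reads in gpa1-2 and 35 reads in WS when untreated, and 10 reads in gpa1-2 and 30 reads in WS with ATP. None of the 8 has a span that overlaps another gene of the RefSeq annotation. Overlaps with genes that this annotation lacks were not looked for.

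By contrast, 6 genes differed the opposite way in the ATP-treated pair. ABCA8 had 12.7 FPKM in gpa1-2 and 3.68 FPKM in WS when untreated, and 2.04 FPKM in gpa1-2 and 6.82 FPKM in WS with ATP. The study calls this gene ATH7 and reports from quantitative PCR that ATP raised it in WS but not significantly in gpa1-2. AT4G14060, for a major latex protein-like protein, had 87.6 FPKM in gpa1-2 and 31.5 FPKM in WS when untreated, and 9.33 FPKM in gpa1-2 and 31.5 FPKM in WS with ATP. FACT, which encodes an acyltransferase of suberin-associated waxes, had 108 FPKM in gpa1-2 and 51.3 FPKM in WS when untreated, and 24.6 FPKM in gpa1-2 and 50.4 FPKM in WS with ATP. For AT4G14060 and FACT the WS columns were nearly level, and the gpa1-2 columns lay on either side of them.

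Lower in untreated gpa1-2 and higher with ATP were MAPR2, JAZ8 and CLH1. JAZ8, a repressor of jasmonate responses, had 27.6 FPKM in gpa1-2 and 65.5 FPKM in WS when untreated, and 33.3 FPKM in gpa1-2 and 15.1 FPKM in WS with ATP. CLH1, a chlorophyllase gene, had 8 reads in gpa1-2 and 30 reads in WS when untreated, and 79 reads in gpa1-2 and 28 reads in WS with ATP.

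**Figure D3:**
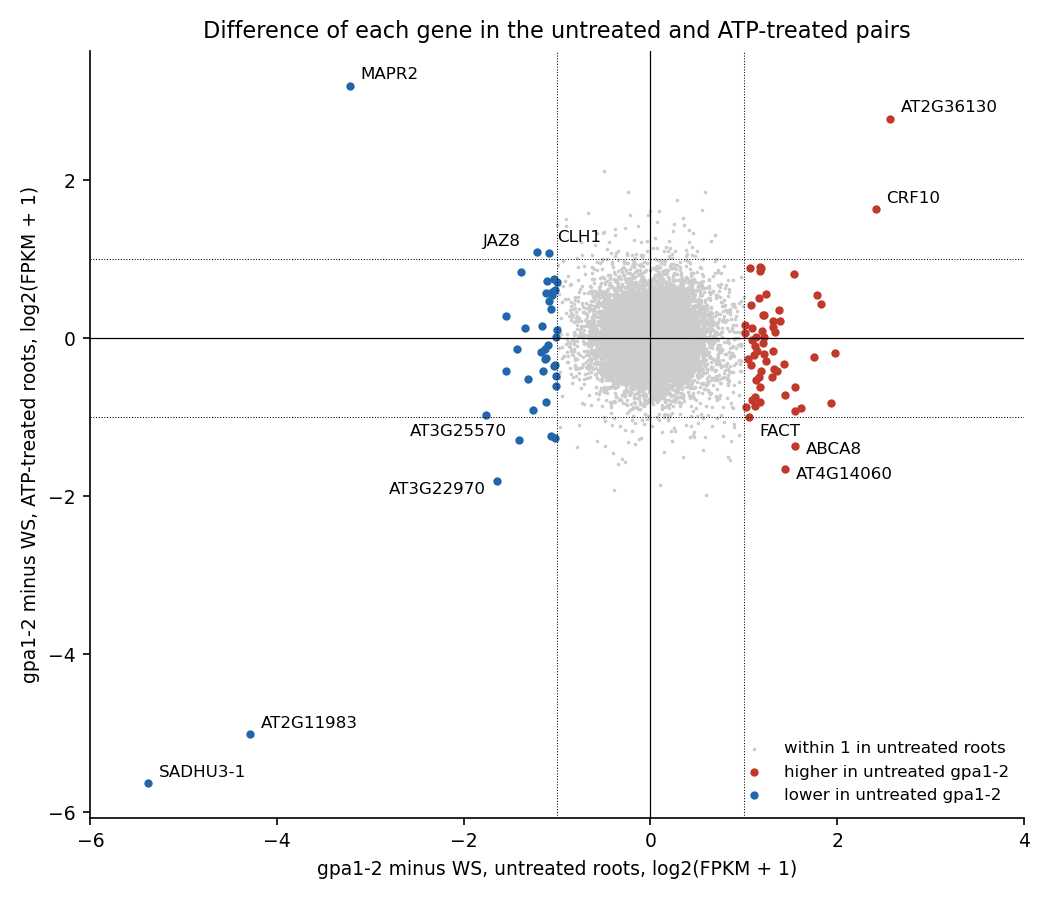
Each point is 1 of the 18354 genes kept in both pairs, with gpa1-2 minus WS in untreated roots on the x axis and in ATP-treated roots on the y axis, both on the log2(FPKM + 1) scale, and dotted lines at 1 and -1. Among the 98 coloured genes, which differ in untreated roots, 8 lie past the lines in the same direction on both axes and 6 in opposite directions.

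Further differing genes are given one by one, chosen after their values were seen, and nothing is read from how many of a kind there were. Transcription factors stood on both sides. RAV1, of the AP2/B3 type, had 81.5 FPKM in gpa1-2 and 180 FPKM in WS (-1.13). ERF13, an ethylene response factor, had 40.9 FPKM in gpa1-2 and 89.2 FPKM in WS (-1.11), and ORA47, an activator of jasmonate synthesis genes, had 9.32 FPKM in gpa1-2 and 21.0 FPKM in WS (-1.09), with a span that overlaps another gene.

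Among those higher in gpa1-2, HB-7, a homeodomain factor induced by abscisic acid and drought, had 68.4 FPKM in gpa1-2 and 30.1 FPKM in WS (1.16). MYB32 had 17.2 FPKM in gpa1-2 and 7.56 FPKM in WS (1.08), and NAC042, which overlaps another gene, had 28.5 FPKM in gpa1-2 and 10.9 FPKM in WS (1.31). In ATP-treated roots the differences of HB-7, MYB32 and NAC042 were -0.50, -0.02 and 0.14, and those of RAV1, ERF13 and ORA47 were -0.14, 0.73 and 0.47.

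Enzyme genes also lay on both sides of 0. IGMT4, which methylates indole glucosinolates after the P450 step, had 151 FPKM in gpa1-2 and 66.5 FPKM in WS (1.17). GSTF7, a glutathione S-transferase, had 277 FPKM in gpa1-2 and 119 FPKM in WS (1.22), and its close relative GSTF6 had 224 and 125 FPKM in gpa1-2 and WS (0.84). The cytochrome P450 gene CYP94C1, of jasmonate breakdown, had a difference of -0.98, just short of the threshold. The list of indole glucosinolate genes, which does not hold CYP81F2 or IGMT4, had a median of -0.01 with no member past 1. Such families hold near-identical copies, and how the authors divided shared reads among them is not stated.

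CYP706A1 and CYP706A2, cytochrome P450 genes that stand close together, were both higher in gpa1-2. CYP706A1 had 26.2 FPKM in gpa1-2 and 10.7 FPKM in WS, and CYP706A2 had 21.2 FPKM in gpa1-2 and 7.54 FPKM in WS. The purine permease gene PUP7 had 34.6 FPKM in gpa1-2 and 14.6 FPKM in WS, and its span overlaps another gene. It stands beside PUP8, of the same family, and for such neighbours shared reads may enter both values.

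The transport genes UMAMIT11 and UMAMIT29, amino acid exporters, had differences of 1.13 and 1.31, and SULTR3;5, of the sulfate transporter family, had 1.05. The extensin-like cell wall gene AT1G26250 had 6.78 FPKM in gpa1-2 and 17.5 FPKM in WS, and overlaps another gene. The peroxidase gene AT5G64120 had 163 FPKM in gpa1-2 and 329 FPKM in WS. The glycine-rich protein gene GRP9 was higher and had the most reads of all differing genes, 11698 in gpa1-2 and 5346 in WS, at 2348 and 1100 FPKM. AT5G64120 and AT1G26250 had differences of -0.60 and -0.92 in ATP-treated roots, while GRP9 had -0.79 there.

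Auxin synthesis genes of the YUCCA family of flavin monooxygenases lay on opposite sides. YUC6 had 7.28 FPKM in gpa1-2 and 2.76 FPKM in WS (1.14), and YUC5 had 3.6 FPKM in gpa1-2 and 9.03 FPKM in WS (-1.12). In ATP-treated roots both lay within 0.5 of 0.

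Beside single genes, 26 lists of pathway genes were read, with 450 genes kept between them. Of these 450 genes, 8 (1.78%) differed by 1 or more, 4 in each direction, against 0.607% of all kept genes, and 20 lists had no differing member. List medians ran between -0.38 and 0.12, while 46.0% of all kept genes lay above 0 and 53.9% below it. The lower side was not particular to the lists described below. Thalianol and marneral cluster genes had 9 of 11 kept members below 0, and 8 had a counting interval wholly below a ratio of 1. For aquaporin genes these numbers were 14 of 18 and 11, and for endoplasmic reticulum stress genes 12 of 16 and 9. The lists were chosen with earlier results of these data known, so nothing is read from the higher share among their members. They are described by these counts alone, and no list was tested.

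Genes of flavonol synthesis lay on the lower side: 12 of 12 kept members lay below 0, the median was -0.37, and 8 had a counting interval wholly below a ratio of 1, which 17.0% of all kept genes had. Flavonols are flavonoid pigments that build up in roots and are known to limit auxin transport. TT4, the chalcone synthase that opens the pathway, had 44.4 FPKM in gpa1-2 and 99.7 FPKM in WS (-1.15), with a span that overlaps another gene. FLS1, the flavonol synthase that closes it, had 10.7 FPKM in gpa1-2 and 28.0 FPKM in WS (-1.31).

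Steps between them lay just short of the threshold. TT5, chalcone isomerase, had 6.63 FPKM in gpa1-2 and 13.1 FPKM in WS (-0.88), and F3H, flavanone hydroxylase, had 17.56 FPKM in gpa1-2 and 32.4 FPKM in WS (-0.85). MYB12, the activator of these genes, had 17.9 FPKM in gpa1-2 and 21.2 FPKM in WS (-0.23). The general phenylpropanoid genes PAL1, PAL2 and C4H lay between -0.11 and -0.04. Under quantile normalization 10 of the 12 members lay below 0, and under median centring or upper-quartile scaling all 12 did.

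In ATP-treated roots the flavonol median was -0.19, with 7 of 12 members below 0 and 0 past 1. FLS1 had 24.8 FPKM in gpa1-2 and 35.9 FPKM in WS there, and TT4 had 84.7 FPKM in gpa1-2 and 114 FPKM in WS. TT4, TT5, F3H and FLS1 were lower in gpa1-2 in both pairs, by less with ATP.

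Of the 25 kept jasmonate genes, 23 lay below 0, with a median of -0.38 and 19 counting intervals wholly below a ratio of 1. Jasmonate is a wound hormone whose signal destroys JAZ repressors and frees factors such as MYC2. JAZ8 was the single member past 1 (-1.22). JAZ5 had 35.7 FPKM in gpa1-2 and 65.1 FPKM in WS (-0.85), JAZ7 had 50.3 FPKM in gpa1-2 and 91.6 FPKM in WS (-0.85), and AOS, of jasmonate synthesis, had 179 FPKM in gpa1-2 and 242 FPKM in WS (-0.44). MYC2 had 217 FPKM in gpa1-2 and 274 FPKM in WS.

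In ATP-treated roots the same 25 genes had a median of 0.50, with 21 above 0 and 3 higher by 1 or more. The list thus lay on opposite sides of 0 in the 2 pairs. Under median centring, upper-quartile scaling and quantile normalization 22 of the 25 untreated differences lay below 0.

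All 14 kept low-oxygen genes lay below 0 in untreated gpa1-2, with a median of -0.33, but none reached -1 and 5 had a counting interval wholly below a ratio of 1. These genes carry out or control fermentation when oxygen is short. PDC1, pyruvate decarboxylase, had 20.5 FPKM in gpa1-2 and 24.98 FPKM in WS, and HRE1, an ERF factor of the response, had 30.7 FPKM in gpa1-2 and 46.1 FPKM in WS (-0.57). Median centring left 13 of 14 below 0, upper-quartile scaling 12 and quantile normalization 14.

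In ATP-treated roots the low-oxygen median was -0.65, with 13 of 14 below 0 and 5 past -1. PDC1 had 108 FPKM in gpa1-2 and 243 FPKM in WS there. This list was therefore on the same side of 0 in both pairs.

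Touch, wound and danger genes were mixed, with 16 of 23 below 0 and a median of -0.24. Its differing members were CYP81F2 (1.98) and ERF13 (-1.11). The calmodulin-like gene CML38 had 144 FPKM in gpa1-2 and 264 FPKM in WS (-0.87), and WRKY40, a defence transcription factor, had 171 FPKM in gpa1-2 and 278 FPKM in WS (-0.70). WRKY33 lay on the other side, with 188 FPKM in gpa1-2 and 160 FPKM in WS (0.24). In ATP-treated roots 16 of 22 kept members were above 0, the reverse of the untreated sign.

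Each of the other 3 lists with a differing member had 1, and all were higher in gpa1-2. LEA7, a late embryogenesis abundant protein of the cold and dehydration list, had 13.9 FPKM in gpa1-2 and 4.47 FPKM in WS (1.44), with a span that overlaps another gene. NAS1, a nicotianamine synthase of the iron list, had 23.8 FPKM in gpa1-2 and 11.2 FPKM in WS (1.03), and GSTF7 stood in the reactive oxygen list. The medians of these lists were 0.03, 0.07 and 0.08, and LEA7, NAS1 and GSTF7 had ATP-treated differences of -0.72, -0.88 and -0.21.

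**Figure D4:**
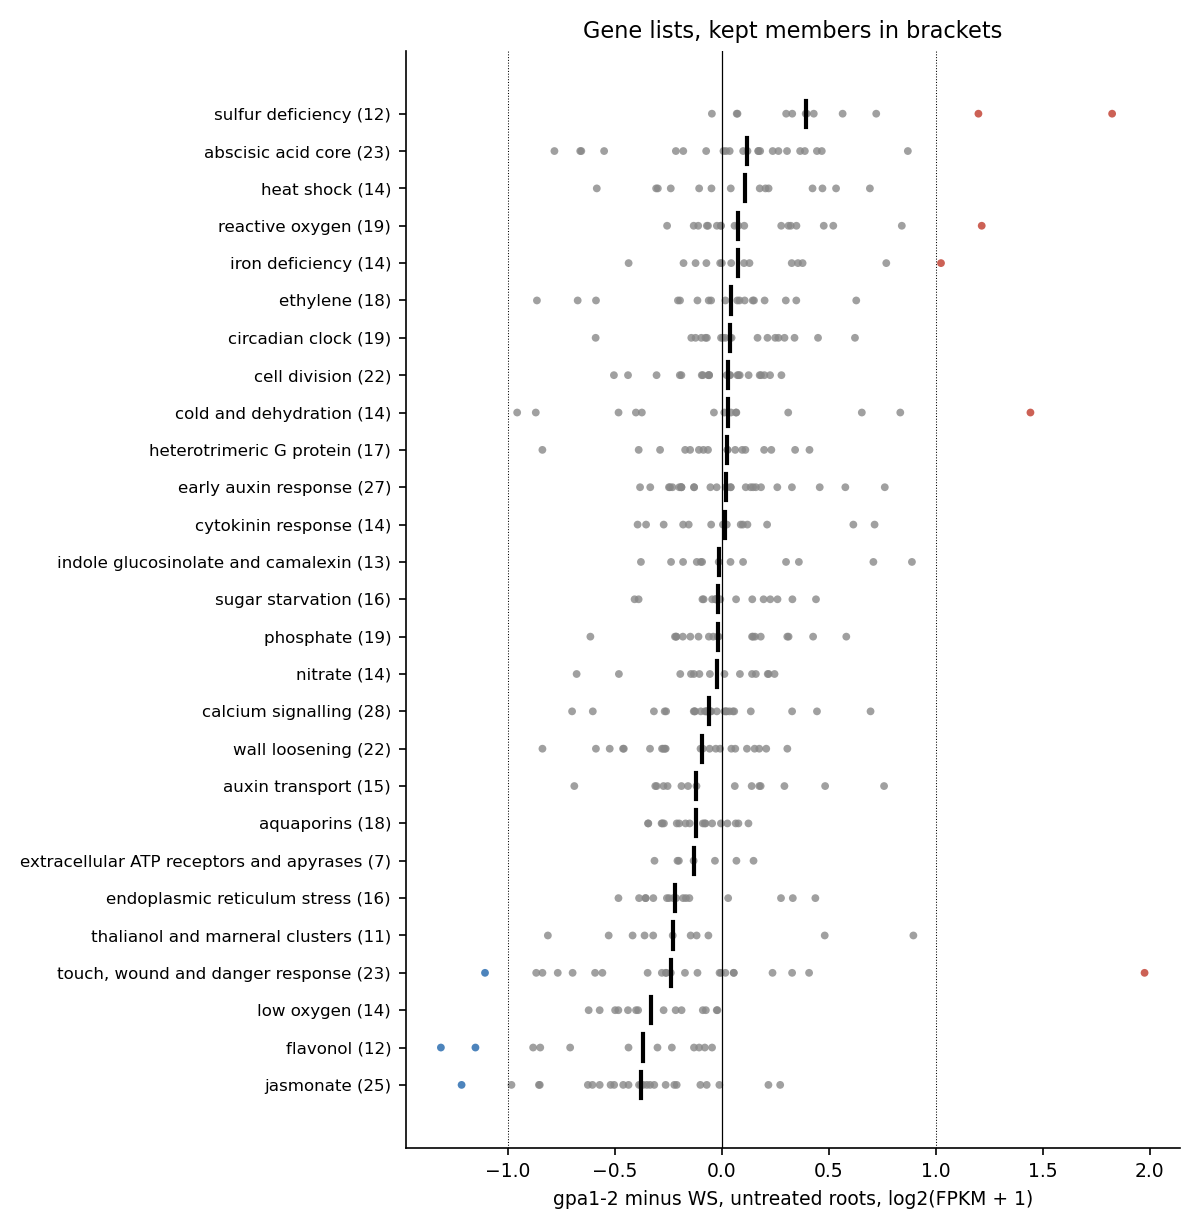
Each row is a gene list with its number of kept genes, each point a member's gpa1-2 minus WS difference in untreated roots on the log2(FPKM + 1) scale, and the black bar the list's median. Red and blue points are members at or past 1 and -1, and the jasmonate, flavonol and low-oxygen medians, at -0.38, -0.37 and -0.33, are the lowest.

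Auxin carriers, whose distribution the study followed in root tips, had no differing member among 15 kept. PIN2, the efflux carrier of root epidermis and cortex, had 36.3 FPKM in gpa1-2 and 40.6 FPKM in WS (-0.16), and the influx carrier AUX1 had 55.8 FPKM in gpa1-2 and 69.1 FPKM in WS (-0.30). PIN4 was lowest, with 15.5 FPKM in gpa1-2 and 25.6 FPKM in WS (-0.69). WAG1, a kinase that acts on PIN proteins, was highest, with 5.42 FPKM in gpa1-2 and 2.80 FPKM in WS (0.76).

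The ATP receptor gene DORN1 had 39.4 FPKM in gpa1-2 and 49.2 FPKM in WS (-0.31), and the 7 kept receptor and apyrase genes had no member past 1. Lists for early auxin response, ethylene, cytokinin, calcium signalling, cell division and the clock had no differing member either, and their medians lay within 0.1 of 0. Core abscisic acid genes had a median of 0.12, with 16 of 23 kept members above 0 and 7 below it. Counting intervals lay wholly above a ratio of 1 for 8 of them and wholly below it for 6. Their differences ran from -0.78 to 0.87, the value of HAI1, a protein phosphatase of the pathway (26.4 FPKM in gpa1-2, 14 FPKM in WS).

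A further list, sulfur deficiency genes, was drawn up after LSU1 and LSU3 were seen among the differing genes. Of its 12 kept members 11 lay above 0, with a median of 0.40 and 8 counting intervals wholly above a ratio of 1, which 12.6% of all kept genes had. LSU1 and LSU3, which prompted the list, are within these counts, so the counts are a description only. LSU3 had 49.3 FPKM in gpa1-2 and 20.9 FPKM in WS (1.2). APR2, a reductase of sulfate assimilation, had 24.1 FPKM in gpa1-2 and 14.2 FPKM in WS (0.72), and the sulfate transporter SULTR1;1 had 19.8 FPKM in gpa1-2 and 14.8 FPKM in WS (0.40).

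SULTR1;2, the main root sulfate uptake carrier, had 95.2 FPKM in gpa1-2 and 98.3 FPKM in WS (-0.05). In ATP-treated roots the sulfur median was 0.05, and LSU1 had 62.9 FPKM in gpa1-2 and 46.4 FPKM in WS.

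**Figure D5:**
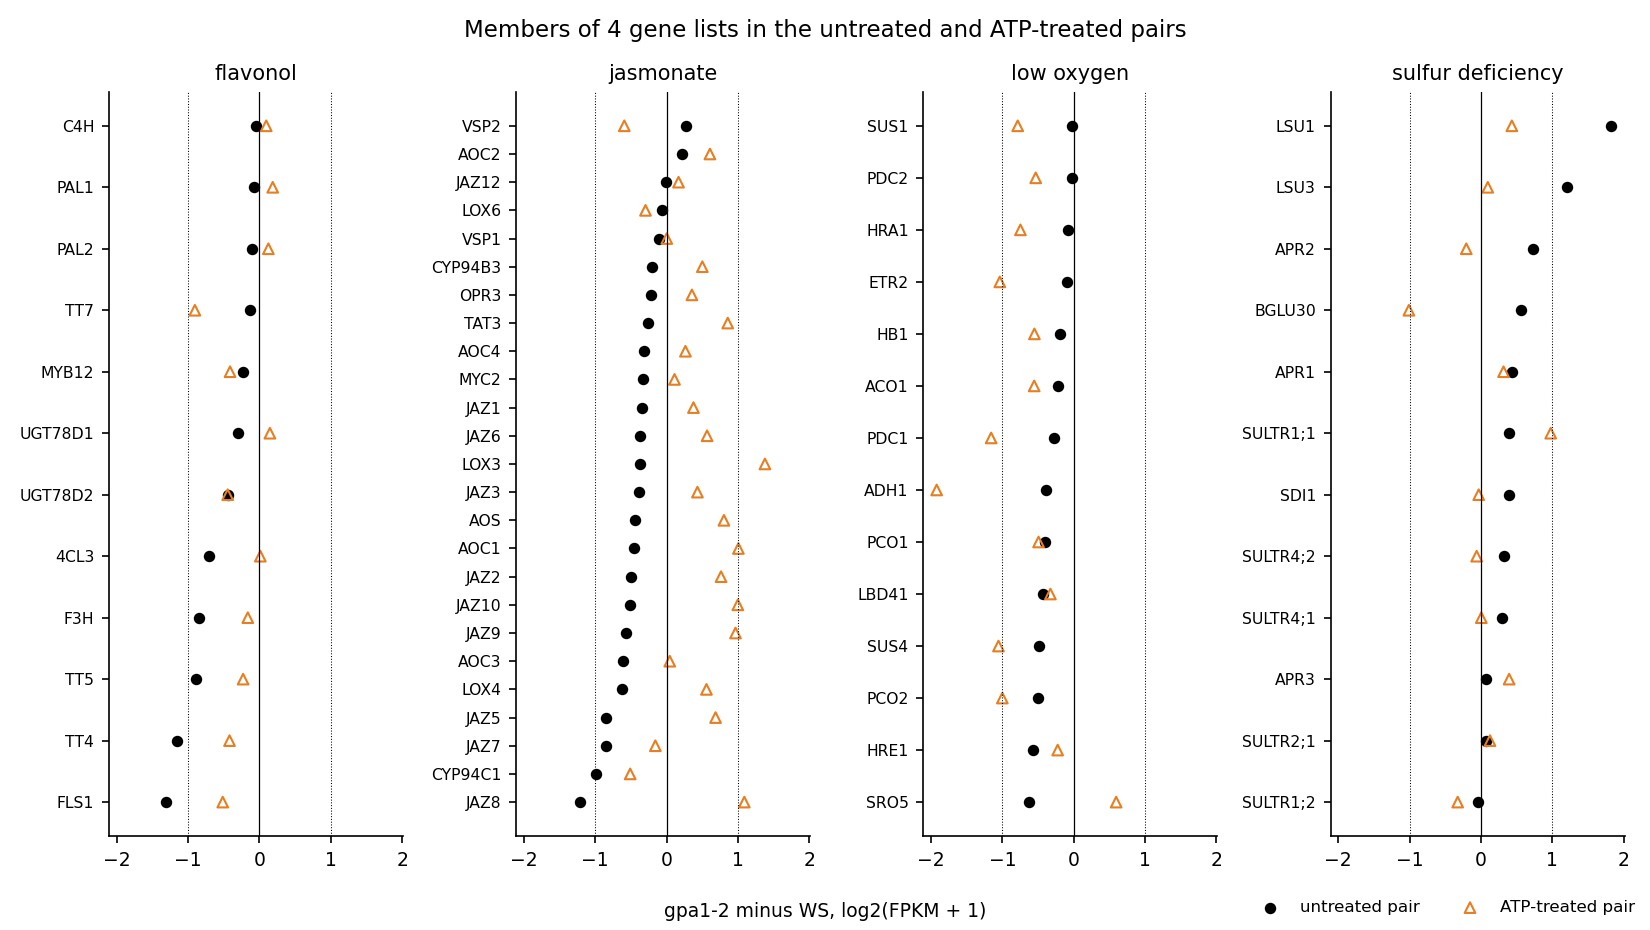
Each panel shows the kept members of 1 of 4 lists, picked for display after their values were seen, with gpa1-2 minus WS on the x axis (log2(FPKM + 1)) in the untreated pair (black points) and the ATP-treated pair (open triangles). Jasmonate genes have their points mostly left of 0 and their triangles mostly right of it (medians -0.38 and 0.50), while low-oxygen genes have both left of 0 (medians -0.33 and -0.65).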

How the data were processed

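The authors deposited 2 tables, 1 per genotype, with a scaled count, given here as a signal per gene, and an FPKM value for each condition. The labels and methods describe Affymetrix arrays, which give neither unit. The aligner, annotation and build are not given in the sources used here. The tables also hold fold changes and significance marks of the authors, which were used only to assign columns. There were 0 unused columns of per-sample values.

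Both tables were joined on gene identifier, and genes were filtered and differenced as stated in the report. Low scaled counts lie on steps, with 2 close step sizes per column, 0.0213% to 0.217% apart. Reads were estimated as the count divided by the mean of the 2 steps, so high read numbers are approximate. Of values of up to 20 reads, 98.9% to 99.2% came out whole within 0.1. Exact (Clopper-Pearson) 95% intervals were computed for ratios of reads. These cover counting error only, and PCR copies are not independent molecules. With 1 pooled value per condition no test or error across replicates was computed. The calls and the read estimate were tested on simulated data.

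The members and gene lists were chosen with earlier results of these data known. Genes named by rule are the G protein list, the 12 highest and 12 lowest differences with at least 20 reads, genes that differed the same way in both pairs, and up to 4 differing members of each list. All others were chosen after their values were seen. Of 629 list symbols 607 matched, and symbols came from RefSeq (TAIR10.1), which holds 18687 of the 18770 kept genes. The alternatives were other pseudocounts, filters, scalings and thresholds, and, added after the data were seen, leaving out overlapping genes. Intervals were computed with scipy 1.17.1, tables with pandas 2.3.3 in Python 3.11.15, and figures with matplotlib 3.10.9.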

Additional observations from a re-analysis of the deposited data

Results flagged for a closer look

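For 6 genes the gpa1-2 minus WS difference was past 1 in untreated roots and past 1 in the opposite direction in ATP-treated roots. With 1 value per condition the difference between the pairs was not tested. The untreated minus the ATP-treated difference, on the log2(FPKM + 1) scale, was 2.92 for ABCA8, 3.1 for AT4G14060 and 2.07 for FACT. It was -2.17 for CLH1, -2.30 for JAZ8 and -6.42 for MAPR2. MAPR2 stood far apart from the other 5, and it had 4 reads in 1 column of each genotype.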

How the results depend on the processing

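The 114 differing genes (68 higher, 46 lower in gpa1-2) became 291 (174 higher, 117 lower) with a pseudocount of 0.1 and 39 (24 higher, 15 lower) with a pseudocount of 5. They became 433 (225 higher, 208 lower) without a filter on low values, 63 (37 higher, 26 lower) with an FPKM of 10 or more, and 64 (40 higher, 24 lower) with at least 100 reads. A threshold of 2 left 6 (3 higher, 3 lower), and the log2 ratio of depth-scaled reads gave 361 (252 higher, 109 lower), 111 of them among the 114. The 8 genes that differed the same way with ATP became 14, 3, 66, 3, 4, 3 and 19 under these 7 settings in the same order. Pseudocount 0.1 raised the differing list genes to 13, against 8. Counts stayed within 1.5 times under median centring, upper-quartile scaling, quantile normalization, at least 20 reads and the removal of overlapping genes. Of the 114 genes, 106, 105, 108, 114 and 95 were shared, in that order. The last 2 of these shared counts were fixed in advance. The 20-read rule was looser than the one used, with 18866 genes kept, and 19 of the 114 genes overlap another gene. With a pseudocount of 5, 13 of 50 named genes fell short of 1 and none changed sign. List medians moved by less than the SD of all differences (0.287) in all 210 cases. That SD is a wide yardstick, as most list medians were themselves smaller in size. Medians near 0 could change sign within it, such as sugar starvation, at -0.02 as reported and 0.06 under quantile normalization.

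No paired analysis was possible because the tables hold 1 column per condition, and leaving out a replicate could not be run for the same reason. The share of differing genes was highest below 100 reads, where counting intervals were widest. The spread between plants is unknown, and the column assignment rests on the genotype in each table's name and on numbers of marked genes.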
